A study of Mus musculus with 84 samples.

Results

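The 8 genes described here encode cell surface proteins by which stages of reprogramming are told apart: Cd44, Icam1, Thy1, Cd47, Nt5e, Itgb4, Pecam1 and Kit. They were taken from the table of read counts by their symbols and make up 8 of the 18909 genes there. The study follows mouse embryonic fibroblasts (MEFs) on their way to induced pluripotent stem cells and asks what constitutively active Smad3 changes in that course. Expression was measured with STRT RNA-seq, a method that sequences from the 5′ end of each transcript, for 10 groups with 3 biological replicates each. Each replicate was spread over 3 wells, or 2 wells on day 10, whose reads were summed to 30 libraries of 1008596 to 2296059 reads. Levels below are normalized read counts (reads divided by the library's size factor). They are reads and not molecules, so intervals and floors cover counting error only.

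The reprogramming cells were MEFs from chimeric embryos of the TNG MKOS line, in which doxycycline switches on 4 reprogramming factors (Myc, Klf4, Oct4, Sox2; MKOS) together with mOrange, by way of an rtTA under the CAG promoter, and GFP reports Nanog. By the study's methods they were a minority among wild-type MEFs in the dish. They were infected with a retroviral vector for a blue fluorescent protein (Cont) or for constitutively active Smad3 (+Sm3CA). All 8 reprogramming groups had ESC medium with LIF, 300 ng/ml doxycycline and vitamin C, and were sorted for mOrange on days 3, 6, 8 and 10. MEFs were wild-type cells of strain 129, the strain background that the labels give for all groups, and were grown without LIF and with FGF2 and heparin. The MEF group is therefore not the transgenic population at its start, and no vector is named for it. ESCs were the TNG-MKOS line itself, a single line, grown with LIF. The series design names sorting for the reprogramming cells alone, whereas the protocol shared by all samples names it without exception. Genotype, medium and infection differ together between MEFs and the reprogramming cells and cannot be told apart in their comparison. ESCs share the transgenic line with the reprogramming cells, for which alone doxycycline, vitamin C and infection are named.

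As background, fibroblasts on the way to pluripotency pass through a mesenchymal-to-epithelial transition: they lose fibroblast antigens, gain epithelial adhesion molecules, and only later switch on the pluripotency network. Thy1 is a GPI-anchored fibroblast antigen whose loss is used as an early sign of the process, CD44 is the hyaluronan receptor and ICAM1 a ligand of leukocyte integrins, and CD44 and ICAM1 are used in flow cytometry to order later stages. CD47 is the ligand of SIRPα and a receptor of thrombospondin, Nt5e (CD73) is the ectonucleotidase that makes adenosine, Itgb4 (CD104) joins integrin α6 in hemidesmosomes, and Pecam1 (CD31) and Kit, the receptor of stem cell factor, are present on mouse ESCs as well as on endothelial or blood cells.

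The genes lie on 5 chromosomes of GRCm38 as annotated by GENCODE vM21. Cd44 spans chr2:102811141-102901665, minus strand, Icam1 spans chr9:21015985-21028817, plus strand, and Thy1 spans chr9:44043384-44048579, plus strand. Cd47 lies at chr16:49800533-49915010, plus strand, and Nt5e at chr9:88327197-88372092, plus strand. Itgb4 lies at chr11:115974709-116008412, plus strand, Pecam1 at chr11:106654217-106750628, minus strand, and Kit at chr5:75574916-75656722, plus strand. No other annotated gene overlaps a member on its own strand. On the opposite strand, Gm23731 overlaps Cd44, Gm47079 overlaps Icam1 and B230344G16Rik overlaps Itgb4, and none of these 3 has counts of its own in the table. The study cites a strand-specific STRT protocol, but whether the counting kept to the strand, and which annotation it used, is not given in the sources used here, so the part of such reads in the counts of Cd44, Icam1 and Itgb4 is uncertain.

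The vector labels were checked with Smad3, whose counts add the endogenous gene and the vector. On day 3 Smad3 stood at 18.7, 5.19 and 8.94 in Cont and at 184, 89.0 and 126 in +Sm3CA. On day 10 the corresponding values were 14.8, 21.5 and 25.4 and 47.7, 32.8 and 44.3. The +Sm3CA libraries lay above all Cont libraries on day 3, and also on day 10, where edgeR's quasi-likelihood test gave a log2 fold change of 1.00 (SE 0.36, adjusted p = 0.12, n = 3). Without a filter on low counts this difference passed the threshold (log2 fold change 1.01, adjusted p = 0.0473; alternatives ranged from 0.0473 to 0.302). The gap between vectors narrowed from day 3 to day 10 (interaction -2.54, SE 0.51, adjusted p = 0.00585, a call lost without Cont day 10 replicate 3, -2.32).

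Defining markers were checked against the labels of MEFs and ESCs. All 10 MEF markers had reads in MEFs, led by Fn1, and their summed level was 7821, 6895 and 9392 in MEFs against 287, 432 and 356 in ESCs, where Col1a2, Col3a1, Twist2, Prrx1 and Thbs2 had no read. All 10 ESC markers had reads in ESCs, led by Dppa5a, with sums of 32348, 54091 and 28886. In MEFs these sums were 8.89, 13.0 and 10.4, and Esrrb, Tfcp2l1, Utf1, Sall4 and Fgf4 had no read. For orientation along the course, Cdh1 stood at 14.3, 14.3 and 25.2 on day 3 and 165, 154 and 134 on day 6 in Cont, and at 179, 204 and 140.2 in ESCs. Epcam stood at 5.35, 5.19 and 16.3 and 56.8, 83.3 and 59.7 on these days, and at 139.8, 149.9 and 121 in ESCs. Both genes of epithelial adhesion rose from day 3 to day 6 in both series, by log2 fold changes of 3.04 and 2.80 in Cont and of 2.43 and 3.03 in +Sm3CA.

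Some libraries stood apart from the others of their group. ESC replicate 2 held Nanog at 21.7 beside 299 and 285 in the other ESC libraries, while its Zfp42 level of 3654 was the highest of the ESC libraries (2275 and 2506 in the others). Its level of Gapdh, a gene chosen after its values were seen, was 370.3 beside 14209 and 11889. Across 8628 genes, log2 levels of ESC replicate 2 had correlations of 0.891 and 0.876 with its replicates, whose own correlation was 0.951, and replicates of the other groups correlated at 0.926 to 0.969. These are correlations across genes, which are not independent replicates. Tests of members and counts and medians of lists on ESCs are therefore given with and without replicate 2.

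The libraries of +Sm3CA day 8 were uneven as well. The correlation of its replicates 2 and 3 was 0.926, the lowest outside ESCs, its Gapdh levels were 1749.6, 924 and 4007, and its neuronal markers summed to 2405, 1943 and 4985. Without its replicates 1, 2 and 3 in turn, 70, 21 and 523 genes were called between the vectors on day 8 (106 with all libraries), 97, 54 and 555 in the step to day 8 (313) and 156, 95 and 308 in the step to day 10 (225). Of the members, the 1 call that changed was that of Cd44 in the step to day 10, gained without replicate 3 and given below.

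Libraries also differed in markers of glia and blood cells. Schwann and glial markers, 6 genes led by Pmp22 or Mbp, summed to 1688, 303 and 321 in Cont on day 8 and to 704, 103 and 70.3 in +Sm3CA on day 10. Replicate 1 was far above the others in both groups, with Mbp at 1273, 147 and 184 in Cont on day 8 and 520.1, 33.9 and 19.5 in +Sm3CA on day 10. The defining glial gene Sox10 had no read in Cont on day 8. In +Sm3CA on day 10 none of the 6 markers was at 0 over the group, and Sox10 stood at 2.80, 2.18 and 0. Without Cont day 8 replicate 1, or without +Sm3CA day 10 replicate 1, the members called in comparisons of Cont day 8, and of +Sm3CA day 10 with Cont or day 8, did not change. Between ESCs and +Sm3CA day 10, leaving out +Sm3CA day 10 replicate 1 lost the call of Thy1 and gained that of Pecam1. Haematopoietic and macrophage markers, 10 genes in the table, summed to 627, 2669 and 2546 in Cont on day 10 and 2019, 1204 and 487 in MEFs, led by Lyz2 in both. In ESCs they summed to 69.4, 52.4 and 50.1, led by Laptm5, and 6 of them had no read. Cont day 10 replicate 1 thus lay below its replicates, and Spi1 had no read in any Cont group. Neuronal markers, 9 genes led by Stmn2, summed to 280.0, 323 and 257 in MEFs, 5187, 6505 and 4919 in Cont on day 3, 3097, 2689 and 2883 in Cont and 3273, 3086 and 2314 in +Sm3CA on day 10, and 1684, 1109 and 1115 in ESCs, with Snap25 at 0 in MEFs and in Cont on days 3, 6 and 10. Stmn2 alone made up most of these neuronal sums, with a mean of 5100.4 in a mean sum of 5537 in Cont on day 3. In bulk RNA, fewer cells of a type and less RNA per cell cannot be told apart, here and in all results below.

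**Figure D1:**
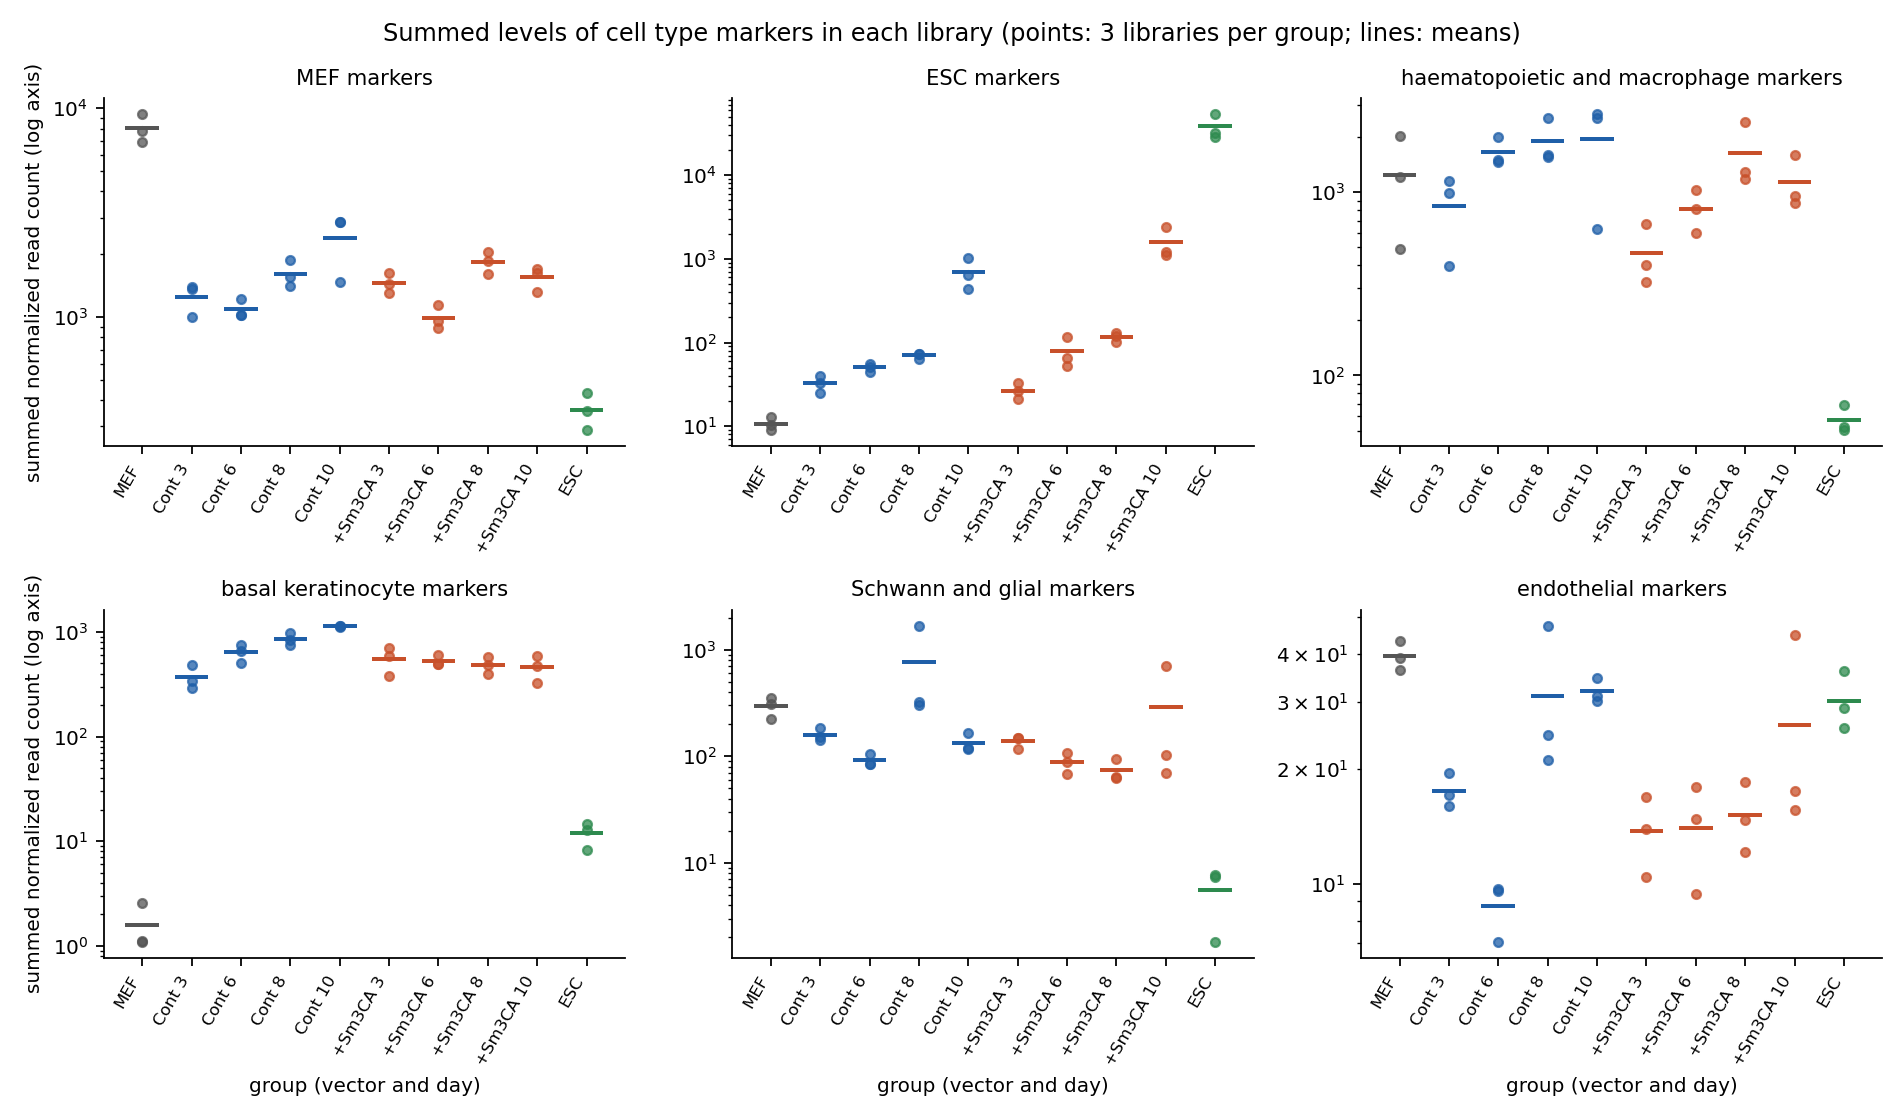
Summed normalized read counts (log axis) of the marker genes of 6 cell types in each of the 30 libraries, by group on the horizontal axis (the number is the day), with points for libraries and lines for group means. Replicate 1 of Cont on day 8 and of +Sm3CA on day 10 lay above its replicates in Schwann and glial markers, and replicate 1 of Cont on day 10 lay below its replicates in MEF and haematopoietic markers.

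A gene is called below when edgeR's quasi-likelihood test gave an adjusted p (Benjamini-Hochberg over all genes tested) under 0.05, and a called gene rose or fell. Where leaving out a library or another choice of processing lost a call of a gene, this is given beside its value. Of the 8 members, 7 passed the filter on low counts, and Pecam1 did not. A member that passes because it is high in some group has to differ somewhere, so the counts are given beside the share of all genes called and nothing is read from them about the members as a set. Between ESCs and MEFs 6 of the 7 were called, in a comparison that called 59.6% of the 10979 genes tested. In the step from MEFs to Cont day 3 the call fell on 4 members, with 43.4% of all genes called. From day 3 to day 6 in Cont 0 members were called by edgeR (1 at an unadjusted p under 0.05 and 0 by DESeq2; 4.92% of all genes). The step to day 8 called 0 (2 at an unadjusted p under 0.05 and 0 by DESeq2; 0.975% of all genes), and that to day 10 called 0 (0 at an unadjusted p under 0.05 and 0 by DESeq2; 1.26% of all genes).

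In +Sm3CA the step from day 3 to day 6 called 3 members, Thy1, Cd47 and Kit, beside 12.4% of all genes. The steps to day 8 and day 10 called 0 (0 at an unadjusted p under 0.05 and 0 by DESeq2; 2.85% of all genes) and 0 (1 at an unadjusted p under 0.05 and 1 by DESeq2; 2.05% of all genes). ESCs differed from Cont day 10 in 6 members, with 51.8% of all genes called, and from +Sm3CA day 10 in 6, with 45.8% of all genes called. Between the vectors, edgeR called 0 members on day 3 (0 at an unadjusted p under 0.05 and 0 by DESeq2; 0.0195% of 10237 genes tested), 0 on day 6 (0 at an unadjusted p under 0.05 and 0 by DESeq2; 0.00977%) and 0 on day 8 (2 at an unadjusted p under 0.05 and 0 by DESeq2, which gave 3 of the members an adjusted p; 1.04%). On day 10 it called 1, Cd44 (3.58% of all genes), and Cd44 was also the 1 member with a called interaction of vector and day (1.01% of all genes). Counts of lists below stand beside these same shares, and nothing is read from them about a list as a set.

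**Figure D2:**
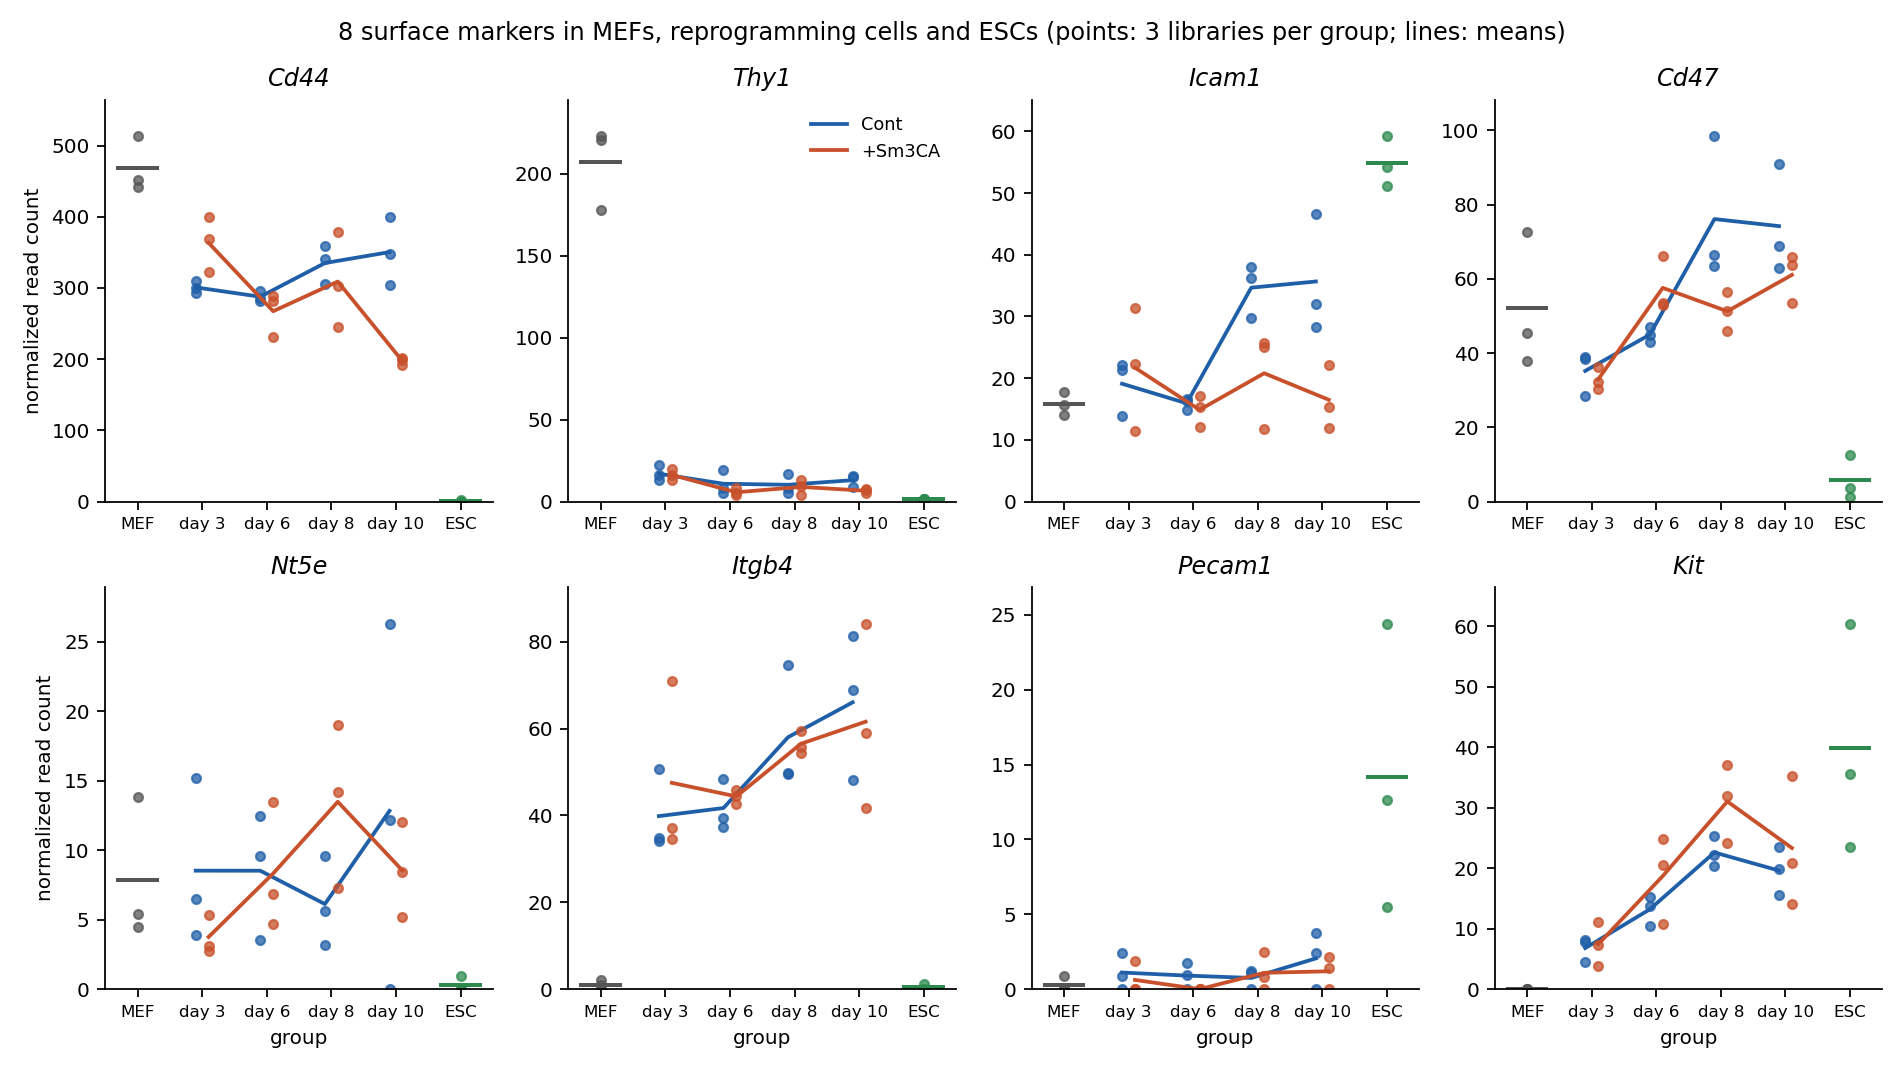
Normalized read counts of the 8 members, by group from MEFs over days 3, 6, 8 and 10 to ESCs on the horizontal axis, with points for the 3 libraries of each group and lines for group means (blue Cont, orange +Sm3CA, grey MEFs, green ESCs). Thy1 was low from day 3 on, Itgb4 was high only in the reprogramming groups, Kit stood at 0 in MEFs, and Cd44 was near 0 in ESCs.

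Thy1 was low by day 3. It stood at 221, 178 and 223 in MEFs and at 16.0, 22.1 and 13.0 in Cont on day 3. Thy1 was 12.8-fold lower in Cont on day 3 than in MEFs (log2 fold change -3.51, SE 0.35, adjusted p = 3.94e-11, n = 3). Folds are ratios of the summed reads of 2 groups, each divided by its summed size factors, and can differ from the fitted log2 fold changes beside them. In Cont it then held levels of 8.31, 19.1 and 5.27 on day 6, 17.0, 8.44 and 5.37 on day 8 and 8.64, 15.5 and 15.1 on day 10. These ranges overlapped with each other and with day 3. In +Sm3CA, Thy1 stood at 16.1, 13.0 and 19.8 on day 3, 5.13, 3.88 and 8.10 on day 6, 4.33, 12.9 and 9.69 on day 8 and 7.01, 7.65 and 5.21 on day 10. Day 6 lay below day 3 without overlap, and Thy1 fell in this step (log2 fold change -1.55, SE 0.46, adjusted p = 0.0223). The call was lost without day 3 replicate 3 (-1.39), day 6 replicate 1 (-1.51) or day 6 replicate 2 (-1.31), and with 1 well per library (-1.97). ESCs held 1.83, 1.81 and 1.29, from 2, 1 and 1 reads, below every other library.

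On day 10 Thy1 was still above its level in ESCs. It was 8.06-fold lower in ESCs than in Cont day 10 (log2 fold change -2.90, SE 0.65, adjusted p = 0.000277; -2.88 without ESC replicate 2) and 4.05-fold lower than in +Sm3CA day 10 (log2 fold change -1.96, SE 0.75, adjusted p = 0.0293). The second call was lost without any single ESC library (-2.11, -1.97 and -1.81 without replicates 1, 2 and 3) and without +Sm3CA day 10 replicate 1 (-1.92) or 2 (-1.82). Against MEFs, ESCs held Thy1 126-fold lower (log2 fold change -6.77, SE 0.50, adjusted p = 2.22e-15; -6.80 without ESC replicate 2). Of the partners of Thy1, 4 integrin chains and the syndecan Sdc4, 0 rose and 5 fell of 5 tested (0 and 5 of 5 without ESC replicate 2) between ESCs and MEFs, where 59.6% of all genes were called, with a median log2 fold change of -4.08 (without ESC replicate 2 -4.06) beside 0.00 (bounded -0.01) over all genes tested. Where it differs, a bounded median follows, in which genes without reads in 1 of the groups stand at their bound. By Cont day 3, against MEFs, 0 rose and 4 fell of 5 tested (median -2.03 beside 0.00), among them Itga5 (log2 fold change -3.39) and Itgav (log2 fold change -2.29). Between the vectors, Thy1 itself lay lower in all +Sm3CA than in all Cont libraries on day 10, without a call (log2 fold change -0.96, SE 0.55, adjusted p = 0.416; alternatives 0.312 to 0.641). Of its partners, edgeR called 0 of 5 tested (2 at an unadjusted p under 0.05, 0 by DESeq2), with a median of -0.50.

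Cd44, the hyaluronan receptor, stood high through reprogramming and was nearly absent in ESCs. MEFs held 451, 442 and 513. Cont held 299.5, 310.0 and 293 on day 3, 296, 281 and 286 on day 6, 341, 305 and 359 on day 8 and 304, 399 and 348 on day 10. +Sm3CA held 369, 399 and 322, 282, 289 and 231, 379, 303 and 245 and 199, 192 and 201 on these days. Every MEF library lay above every reprogramming library, and the +Sm3CA libraries of day 10 formed the lowest and tightest group before ESCs, below all Cont libraries of any day. In ESCs, Cd44 had 0, 1 and 0 reads. With that 1 read, from replicate 2, Cd44 was 1146-fold lower (95% counting interval 205 to 45297) in ESCs than in MEFs (adjusted p = 4.61e-23). Without ESC replicate 2 there was no ESC read left, and the call held (adjusted p = 2.62e-23). ESCs were also 850.1-fold lower (95% counting interval 152 to 33612) than Cont day 10 and 478-fold lower (95% counting interval 85.3 to 18909.5) than +Sm3CA day 10 (adjusted p = 7.84e-22 and 6.31e-20; 9.03e-22 and 8.2e-20 without ESC replicate 2). Without ESC replicate 1 these folds against MEFs, Cont day 10 and +Sm3CA day 10 became 629-fold (113 to 24857), 466-fold (83.5 to 18445) and 262-fold (46.8 to 10377), and without ESC replicate 2 at least 295-fold, at least 219-fold and at least 123-fold.

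From MEFs to Cont day 3 Cd44 fell (log2 fold change -0.52, SE 0.19, adjusted p = 0.0205, n = 3). This call was lost without MEF replicate 3 (log2 fold change -0.44, adjusted p = 0.0828) and with no filter on low counts (adjusted p = 0.0652), and adjusted p over all alternatives ranged from 0.000205 to 0.0828. In +Sm3CA the step from day 8 to day 10 had a log2 fold change of -0.65 (adjusted p = 0.0572), past the threshold with DESeq2 (-0.65, adjusted p = 0.00482) and without day 8 replicate 3 (-0.79, adjusted p = 0.0231), with alternatives from 0.00482 to 0.289. The step from day 3 to day 6 had -0.42 (adjusted p = 0.144) and passed with DESeq2 alone (-0.44, adjusted p = 0.0403; alternatives 0.0403 to 0.422).

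Between the vectors on day 10, Cd44 was 1.78-fold lower in +Sm3CA than in Cont (log2 fold change -0.81, SE 0.17, adjusted p = 0.00208), lower in 3 of 3 libraries without overlap. The call held in every alternative and with each library left out, and the log2 fold change ran from -0.91 with 1 well per library to -0.70 without Cont day 10 replicate 2. On day 3 the +Sm3CA libraries had lain above all Cont libraries, without a call. The change of the vector difference from day 3 to day 10 was itself called (log2 fold change -1.08, SE 0.23, adjusted p = 0.0105). It was lost without Cont day 10 replicate 2 (-0.97, adjusted p = 0.0684) and in a fit of all 30 libraries (-1.07, adjusted p = 0.0588), with alternatives from 0.000372 to 0.0684.

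Cell type markers were compared between the vectors on day 10, where 3.58% of all genes were called. MEF markers summed to 1475, 2866 and 2867 in Cont and 1693, 1632 and 1326 in +Sm3CA, with Dcn the most abundant and no marker at 0 in either. Of the 10 tested, 5 fell, among them Postn (log2 fold change -1.69, a call lost without Cont day 10 replicate 2 or +Sm3CA day 10 replicate 2 or 3 or by DESeq2, -1.66 to -1.42), Col1a1 (log2 fold change -1.28, a call lost without Cont day 10 replicate 2 or 3 or +Sm3CA day 10 replicate 3, -1.20 to -0.99) and Fn1 (log2 fold change -1.08), with a median of -1.03 beside -0.01 over all genes. ESC markers summed to 649, 437 and 1017 in Cont and 1113, 1222 and 2391 in +Sm3CA, led by Dppa5a and with none at 0. Of these, 3 rose and 0 fell of 9 tested, namely Tfcp2l1 (log2 fold change 1.40, a call lost without Cont day 10 replicate 1 or 2 or +Sm3CA day 10 replicate 2 or 3 or by DESeq2, 1.09 to 1.44), Dppa5a (log2 fold change 1.35, a call lost without Cont day 10 replicate 2 or +Sm3CA day 10 replicate 3 or by DESeq2, 0.79 to 1.37) and Zfp42 (log2 fold change 1.03, a call lost without Cont day 10 replicate 2 or +Sm3CA day 10 replicate 3, 0.81 to 0.83). Haematopoietic and macrophage markers summed to 953, 868 and 1599 in +Sm3CA on day 10, led by Lyz2. Of these, 0 rose and 1 fell of 8 tested by edgeR and 0 by DESeq2, with 5 at an unadjusted p under 0.05. The call was Fcer1g (log2 fold change -1.89, a call lost without Cont day 10 replicate 2 or 3 or +Sm3CA day 10 replicate 1 or 2, with 1 well, in a fit of 30 libraries or by DESeq2, -1.87 to -1.41). Of Schwann and glial markers, 1 rose and 1 fell of 3 tested, Mbp (log2 fold change 3.70, a call lost without +Sm3CA day 10 replicate 1, 0.94) and Pmp22 (log2 fold change -0.86, a call lost without Cont day 10 replicate 1, 2 or 3 or +Sm3CA day 10 replicate 2 or 3 or in a fit of 30 libraries, -0.92 to -0.78). Of genes listed as mast cell markers, 0 rose and 1 fell of 2 tested, Mcpt8 (at least 11.2-fold lower), which by itself does not mark mast cells. DESeq2 gave Mcpt8 no adjusted p, and it was not tested with 1 well per library. Of basal keratinocyte markers 0 rose and 2 fell of 3 tested, the keratins given with Itgb4 below. Of neuronal markers, edgeR called 0 of 5 tested (1 at an unadjusted p under 0.05, 0 by DESeq2). Of endothelial markers, edgeR called 0 of 1 tested (0 at an unadjusted p under 0.05, 0 by DESeq2). No melanocyte marker was tested. Cont day 10 replicate 1, lowest in MEF and haematopoietic markers, also had the lowest Cd44 of its group, and without it Cd44 stood at a log2 fold change of -0.88 (adjusted p = 0.00146). The part of these markers in the difference of Cd44 was not tested.

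The 16 genes around CD44 include hyaluronan synthases and hyaluronidases, the ERM linkers to actin, proteases that cleave CD44, the splicing factors of its variants and osteopontin. Of these, 3 rose and 8 fell of 13 tested (3 and 7 of 13 without ESC replicate 2) between ESCs and MEFs (median -2.00 (without ESC replicate 2 -1.56) beside 0.00 (bounded -0.01) over all genes). The hyaluronan synthase Has2 (at least 162-fold lower) and the protease Mmp14 (121-fold lower, counting interval 41.0 to 587) were lower in ESCs, and the epithelial splicing factor Esrp1 (at least 37.2-fold higher) was higher. From MEFs to Cont day 3, 2 rose and 5 fell of 13 tested (median -0.59 (bounded -0.84) beside 0.00), with Has2 (log2 fold change -3.29), Msn (log2 fold change -2.07) and Esrp2 (log2 fold change 3.36). From day 3 to day 6 in Cont, 1 rose and 2 fell of 13 tested (median 0.10 beside 0.02): Esrp1 (17.2-fold higher, counting interval 4.47 to 147, a call lost with 1 well), Has2 (log2 fold change -1.59, a call lost without Cont day 3 replicate 2 or 3 or Cont day 6 replicate 1, 2 or 3, with 1 well or with the replicate block, -1.98 to -0.93) and Msn (log2 fold change -0.68, a call lost without Cont day 3 replicate 1, 2 or 3 or Cont day 6 replicate 1, 2 or 3, with no filter, with 1 well or with the replicate block, -0.76 to -0.59). In the same step of +Sm3CA, 2 rose and 3 fell of 13 tested (median 0.10 beside 0.04): Esrp1 (log2 fold change 3.18), Rdx (log2 fold change 0.80, a call lost without +Sm3CA day 3 replicate 2 or +Sm3CA day 6 replicate 1 or with 1 well, 0.38 to 0.75), Has2 (log2 fold change -1.48, a call lost without +Sm3CA day 3 replicate 1, 2 or 3 or +Sm3CA day 6 replicate 1, 2 or 3 or with 1 well, -1.72 to -1.14), Hyal2 (log2 fold change -1.39, a call lost with 1 well, -1.03) and Msn (log2 fold change -0.90). The read ends do not tell splice forms of Cd44 apart. On day 10, 0 rose and 2 fell of 12 tested between the vectors (median -0.47): the ERM protein moesin, Msn (log2 fold change -1.35), and osteopontin, Spp1 (log2 fold change -1.10, a call lost without Cont day 10 replicate 2 or 3 or +Sm3CA day 10 replicate 1 or 2, in a fit of 30 libraries or by DESeq2, -1.09 to -0.74). Msn also had a called interaction (log2 fold change -1.54).

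Icam1 was highest in ESCs. It stood at 51.2, 54.2 and 59.2 there and at 17.8, 14.1 and 15.6 in MEFs. Cont held 21.4, 22.1 and 13.8 on day 3, 16.6, 16.3 and 14.9 on day 6, 36.2, 38.0 and 29.8 on day 8 and 32.1, 46.6 and 28.3 on day 10. +Sm3CA held 11.5, 22.3 and 31.3, 15.4, 17.1 and 12.1, 11.7, 25.7 and 25.0 and 15.4, 12 and 22.1. Every ESC library lay above every other library. In Cont, days 8 and 10 lay above days 3 and 6 without overlap, whereas the ranges of all 4 days overlapped in +Sm3CA with at least 1 other day. Icam1 was 3.45-fold higher in ESCs than in MEFs (log2 fold change 1.88, SE 0.34, adjusted p = 1.02e-05, n = 3; 1.91 without ESC replicate 2) and 3.34-fold higher than in +Sm3CA day 10 (log2 fold change 1.71, SE 0.35, adjusted p = 0.000111; 1.75 without ESC replicate 2).

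Against Cont day 10, ESCs had a log2 fold change in Icam1 of 0.63 (SE 0.32, adjusted p = 0.0947; 0.70 without ESC replicate 2), which passed the threshold without Cont day 10 replicate 2 (0.89, adjusted p = 0.0477; alternatives 0.0477 to 0.263). The step from day 6 to day 8 in Cont gave 1.09 (adjusted p = 0.142), past the threshold only in a fit of these 2 groups (1.10, adjusted p = 0.0447; alternatives 0.0447 to 0.409). Between the vectors, all +Sm3CA libraries lay below all Cont libraries on days 8 and 10. The day 10 difference did not pass the test (log2 fold change -1.09, SE 0.37, adjusted p = 0.0916; alternatives 0.0967 to 0.365), and neither did its change from day 3 (log2 fold change -1.26, SE 0.51, adjusted p = 0.283).

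Partners of ICAM1 comprise its integrin receptors and the NF-κB factors that drive it in inflammation. Between ESCs and MEFs 0 rose and 6 fell of 9 tested (0 and 5 of 10 without ESC replicate 2) (median -1.57 (without ESC replicate 2 -1.31) beside 0.00 (bounded -0.01)), so that Icam1 was higher in ESCs while Tnfrsf1a (53.2-fold lower, counting interval 17.9 to 260.3), Nfkb2 (20.4-fold lower, counting interval 3.33 to 836) and the leukocyte integrin chains Itgam (at least 8.15-fold lower) and Itgb2 (at least 5.70-fold lower) were lower. In Cont day 3 against MEFs, 0 rose and 1 fell of 9 tested, with Nfkb1 (log2 fold change -2.00) (median -0.70). From day 3 to day 6, 1 rose and 0 fell of 9 tested in Cont and 1 rose and 0 fell of 9 tested in +Sm3CA, in both the inhibitor Nfkbia (in Cont log2 fold change 1.94, and in +Sm3CA log2 fold change 1.24, a call lost without +Sm3CA day 3 replicate 1, 0.97). It was lower in +Sm3CA than in Cont on day 10 (log2 fold change -0.84, a call lost without Cont day 10 replicate 1, 2 or 3 or +Sm3CA day 10 replicate 2 or 3, with 1 well or in a fit of 30 libraries, -0.87 to -0.63), where 0 rose and 1 fell of 9 tested (median -0.68).

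Cd47, the signal that restrains phagocytes, stood at 45.5, 38.0 and 72.6 in MEFs and at 3.65, 12.6 and 1.29 in ESCs, there from 4, 7 and 1 reads. In Cont it held 38.3, 38.9 and 28.4 on day 3, 45.0, 46.9 and 43.0 on day 6, 63.4, 66.5 and 98.4 on day 8 and 63.0, 90.8 and 68.8 on day 10. In +Sm3CA it held 32.2, 36.2 and 30.3, 53.0, 53.6 and 66.1, 51.3, 46.0 and 56.5 and 65.9, 53.5 and 63.8. All ESC libraries lay below all others. Cd47 was 10.9-fold lower in ESCs than in MEFs (log2 fold change -3.25, SE 0.40, adjusted p = 3.53e-09, n = 3). It was 14.9-fold lower than in Cont day 10 (log2 fold change -3.83, adjusted p = 4.97e-11) and 12.2-fold lower than in +Sm3CA day 10 (log2 fold change -3.58, adjusted p = 7.05e-10). Without ESC replicate 2 the 3 log2 fold changes became -4.13, -4.67 and -4.44, and the folds 20.1-fold, 27.7-fold and 22.7-fold.

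From day 3 to day 6 in +Sm3CA, Cd47 rose (log2 fold change 0.81, SE 0.28, adjusted p = 0.0495), and all day 6 libraries lay above all day 3 libraries. The call sat at the threshold: it was lost when any of the 6 libraries was left out (0.81, 0.90 and 0.77 without day 3 replicates 1, 2 and 3, and 0.86, 0.87 and 0.74 without those of day 6). It was lost as well with the replicate block, which matched days within a series by replicate number (log2 fold change 0.81, adjusted p = 0.0698 by edgeR's test). Over all alternatives the adjusted p ran from 0.024 to 0.342. Further losses came with DESeq2's size factors (0.79), with no filter on low counts (0.84) and with 1 well per library (0.59). Haematopoietic and macrophage markers summed to 325, 398 and 671 on day 3 and to 813, 598 and 1028 on day 6 of +Sm3CA. Lyz2, the most abundant of them on both days, correlated with Cd47 at r = 0.920 over the 30 libraries, at rank 3 in a search of 8628 genes. ESCs were lowest in both Cd47 and the sum of these markers. Within +Sm3CA, the highest sum went with the lowest Cd47 on day 3 (671 and 30.3) and with the highest on day 6 (1028 and 66.1). The part of these markers in the level of Cd47 was not tested. Between the vectors, +Sm3CA libraries lay above Cont on day 6 and below it on day 8 in Cd47, each without overlap and without a call.

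The 6 partners of CD47, thrombospondins, the receptor Sirpa, the integrin chain Itgb3 and the phagocytosis pair Calr and Lrp1, were lower in ESCs than in MEFs: 0 rose and 6 fell of 6 tested (0 and 6 of 6 without ESC replicate 2), with a median of -5.35 (without ESC replicate 2 -5.35) beside 0.00 (bounded -0.01) over all genes, and with Thbs1 (log2 fold change -10.01) and Lrp1 (log2 fold change -4.84). From MEFs to Cont day 3, 0 rose and 4 fell of 6 tested (median -1.71), among them Thbs2 (log2 fold change -4.08) and Thbs1 (log2 fold change -3.91). On day 10, 0 rose and 2 fell of 6 tested between the vectors (median -0.87 beside -0.01), with Thbs1 (log2 fold change -2.10) and Lrp1 (log2 fold change -1.28, a call lost without Cont day 10 replicate 2 or 3 or +Sm3CA day 10 replicate 1, 2 or 3, with no filter, with 1 well or by DESeq2, -1.45 to -1.13) lower in +Sm3CA. Thbs1, a matrix protein that binds CD47, held 328, 888 and 836 in Cont and 150.0, 187 and 134 in +Sm3CA on day 10, without overlap, and had a called interaction (log2 fold change -1.96, a call lost without Cont day 3 replicate 1 or Cont day 10 replicate 2, -1.80 to -1.72).

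Nt5e was low and uneven. MEFs held 4.44, 5.43 and 13.8, and ESCs held 0.913, 0 and 0, from 1, 0 and 0 reads. Over the 8 reprogramming groups single libraries ran from 0 to 26.3, both in Cont on day 10 (0, 26.3 and 12.2). The lowest group before ESCs was +Sm3CA day 3 (5.37, 2.78 and 3.13), which lay below +Sm3CA day 8 (14.2, 19.0 and 7.27). With 1 read over the ESC libraries, Nt5e was 20.4-fold lower (95% counting interval 3.33 to 836) in ESCs than in MEFs (adjusted p = 0.00522; 0.0154 without ESC replicate 2). It was 31.4-fold lower (95% counting interval 5.27 to 1273) than in Cont day 10 (adjusted p = 0.000758; 0.0033 without ESC replicate 2) and 21.3-fold lower (95% counting interval 3.42 to 879) than in +Sm3CA day 10 (adjusted p = 0.00507; 0.0151 without ESC replicate 2). The single ESC read was in replicate 1. Without that library the calls held (adjusted p = 0.00945, 0.0028 and 0.0104), and ESCs were at least 3.72-fold, at least 5.73-fold and at least 3.89-fold lower. Most reads of MEFs and of Cont day 10 came from 1 library each: without MEF replicate 3 ESCs were 12-fold (1.66 to 525) lower than MEFs (adjusted p = 0.0478), and without Cont day 10 replicate 2 they were 16.9-fold (2.53 to 716) lower than Cont day 10 (adjusted p = 0.0169).

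Within Cont day 10, the library without an Nt5e read was the one with the lowest haematopoietic and macrophage markers, and the highest Nt5e value went with the highest sum of these markers. In MEFs the order was the reverse, with sums of 2019, 1204 and 487 beside Nt5e at 4.44, 5.43 and 13.8. The part of these markers in the level of Nt5e was not tested. Of 9 other genes of extracellular adenosine, 3 passed the filter: 1 rose and 0 fell of 3 tested (1 and 1 of 5 without ESC replicate 2) between ESCs and MEFs, the nucleoside transporter Slc29a1 (log2 fold change 2.12), with a median of 0.07 (without ESC replicate 2 -0.61, bounded -0.16). The same gene rose from MEFs to Cont day 3 (log2 fold change 2.45), where the median was 0.61. From day 3 to day 6, 0 rose and 1 fell of 3 tested in Cont, the adenosine kinase Adk (log2 fold change -0.76, a call lost without Cont day 3 replicate 2 or 3 or Cont day 6 replicate 1 or 2, -0.72 to -0.67), and 0 rose and 2 fell of 3 tested in +Sm3CA, Adk (log2 fold change -1.04) and Slc29a1 (log2 fold change -1.04). Between the vectors on day 10, edgeR called 0 of 3 tested (1 at an unadjusted p under 0.05, 0 by DESeq2) (median -0.31).

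Itgb4 was high in the reprogramming cells alone. It had 2, 0 and 1 reads in MEFs and 0, 0 and 1 in ESCs. Cont held 34.8, 50.6 and 34.1 on day 3, 39.5, 37.3 and 48.3 on day 6, 49.8, 49.6 and 74.6 on day 8 and 48.1, 81.2 and 68.8 on day 10. +Sm3CA held 34.5, 37.1 and 70.9, 44.5, 42.7 and 45.9, 54.4, 59.4 and 55.7 and 58.9, 84.1 and 41.7. Every reprogramming library lay above every MEF and ESC library by more than 10-fold, and the vectors overlapped on every day. On 3 MEF reads, Itgb4 was 38.1-fold higher (95% counting interval 12.7 to 188) in Cont on day 3 than in MEFs (adjusted p = 1.32e-10, n = 3). On 1 ESC read, in replicate 3, it was 161-fold lower (95% counting interval 28.6 to 6404) in ESCs than in Cont day 10 (adjusted p = 1.69e-12; 2.57e-11 without ESC replicate 2) and 153-fold lower (95% counting interval 27.0 to 6076) than in +Sm3CA day 10 (adjusted p = 3.94e-12; 5.08e-11 without ESC replicate 2). Without MEF replicate 1 the fold from MEFs to Cont day 3 was 79.9-fold (14.1 to 3180.3). Those of ESCs against Cont day 10 and +Sm3CA day 10 were 88.5-fold (15.7 to 3514) and 83.9-fold (14.8 to 3334) without ESC replicate 1, and at least 36.5-fold and at least 34.6-fold without ESC replicate 3. No fold is given between ESCs and MEFs, which were both at or under 3 reads over the group.

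Itgb4 is a gene of basal keratinocytes, and their markers were followed beside it. The 8 markers summed to 1.11, 1.09 and 2.59 in MEFs, 288, 483 and 341 in Cont on day 3, 1116, 1141 and 1151 in Cont on day 10 and 8.22, 14.5 and 12.9 in ESCs. Krt14 and Krt17 made up most of the sum, and all 3 markers tested rose from MEFs to Cont day 3: Krt14 (748-fold higher, counting interval 134 to 29571), Krt17 (129.7-fold higher, counting interval 35.6 to 1076) and Dsg3 (at least 8.27-fold higher). The defining markers Krt5 and Trp63 had no read in Cont on days 3 and 6. In +Sm3CA the sums were 375, 592 and 704 on day 3 and 592, 475 and 323 on day 10, with Krt15 and Trp63 at 0 on both days. On day 10 the keratins fell in +Sm3CA relative to Cont while Itgb4 overlapped: Krt14 (log2 fold change -1.60) and Krt17 (log2 fold change -1.14), and the interaction was called for both (Krt14: log2 fold change -2.06; Krt17: log2 fold change -2.11). The part of such cells in the level of Itgb4 was not tested.

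Among 8 partners of this integrin, its α6 chain, laminin chains and hemidesmosome linkers, 2 rose and 0 fell of 6 tested from MEFs to Cont day 3 (median 0.06 beside 0.00): Itga6 (log2 fold change 1.16) and Lama3 (23.8-fold higher, counting interval 3.90 to 979). Between ESCs and Cont day 10, 0 rose and 4 fell of 6 tested (0 and 4 of 6 without ESC replicate 2) (median -1.01 (without ESC replicate 2 -0.92) beside -0.15), among them Lama3 (24.2-fold lower, counting interval 6.38 to 205) and the linker Plec (log2 fold change -2.83). Between ESCs and MEFs, 2 rose and 2 fell of 6 tested (2 and 2 of 6 without ESC replicate 2), with Itga6 (log2 fold change 1.00, a call lost without MEF replicate 2 or in a fit of 2 groups, 0.60 to 0.92) and Lama5 (log2 fold change 2.05) higher in ESCs (median 0.41 (bounded -0.18, without ESC replicate 2 0.37, bounded -0.21)). Between the vectors on day 10, edgeR called 0 of 6 tested (2 at an unadjusted p under 0.05, 0 by DESeq2) (median -0.05).

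Kit, without a read in MEFs, appeared by day 3. It held 4.46, 7.78 and 8.13 in Cont on day 3, 13.8, 15.3 and 10.5 on day 6, 20.4, 25.3 and 22.1 on day 8 and 23.5, 15.5 and 19.8 on day 10. In +Sm3CA it held 3.84, 11.1 and 7.30, 20.5, 24.8 and 10.8, 24.1, 31.9 and 37.1 and 14.0, 20.8 and 35.2, and in ESCs 35.6, 23.5 and 60.4. All reprogramming libraries had reads of Kit, the vectors overlapped on every day, and the lowest ESC library was level with the highest Cont library of day 10, both at 23.5, while ESCs overlapped with both vectors on day 8 and with +Sm3CA on days 6 and 10. Against a floor of 3 reads over the MEF group, Kit was at least 6.68-fold higher in Cont on day 3 (adjusted p = 5.32e-05, n = 3) and at least 40.5-fold higher in ESCs (adjusted p = 4.63e-11; 4.44e-12 without ESC replicate 2), or at least 4.08-fold and at least 24.8-fold without MEF replicate 3. In +Sm3CA it rose from day 3 to day 6 (log2 fold change 1.41, SE 0.45, adjusted p = 0.0317), with ranges that overlapped. That call was lost without day 3 replicate 1 (1.08) or 3 (1.42), without day 6 replicate 1 (1.36) or 2 (1.17), and with 1 well per library (1.62).

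ESCs held Kit 2.09-fold higher than Cont day 10 (log2 fold change 1.05, SE 0.39, adjusted p = 0.0241; 1.34 without ESC replicate 2). The call was lost without ESC replicate 3 (0.68), without Cont day 10 replicate 2 (0.93) or 3 (1.08), in a fit of these 2 groups (0.99) and with 1 well per library (0.82). Against +Sm3CA day 10 the difference did not pass (log2 fold change 0.76, SE 0.39, adjusted p = 0.108), but did without ESC replicate 2 (1.03, adjusted p = 0.0339) and without +Sm3CA day 10 replicate 3 (1.17, adjusted p = 0.0356; alternatives 0.0339 to 0.513). Whether the distance of ESCs to Cont and to +Sm3CA differed was not tested. Kit is also a gene of mast cells and melanocytes. Of 9 genes listed as mast cell markers 3 were in the table. In MEFs most of their sum (mean 189) was Mcpt8 (mean 184), which by itself does not mark mast cells. Mcpt8 stood at 219, 205 and 127 in MEFs, where Kit had no read and Hdc was at 0. In ESCs the sums of this list were 0, 1.81 and 5.14, with Mcpt8 at 0. Melanocyte markers, 6 in the table, summed to 60.3, 18.1 and 73.3 in ESCs, most of it Pmel, with Tyr and Sox10 at 0, and to at most 8.68 in any MEF or reprogramming library.

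Of 9 genes of KIT signalling, 0 rose and 4 fell of 8 tested (0 and 5 of 8 without ESC replicate 2) between ESCs and MEFs (median -0.96 (without ESC replicate 2 -1.41) beside 0.00 (bounded -0.01)): the ligand Kitl (log2 fold change -1.42, a call lost without MEF replicate 1 or ESC replicate 1 or in a fit of 2 groups, -1.46 to -0.98), the kinase Lyn (log2 fold change -3.40), and the adaptors Gab2 (at least 7.87-fold lower) and Shc1 (log2 fold change -0.92, a call lost with 1 well, -0.78). In Cont day 3 against MEFs, 0 rose and 3 fell of 8 tested (median -0.83), with Lyn (log2 fold change -1.58, a call lost without MEF replicate 3 or Cont day 3 replicate 2, -1.42 to -1.21). From day 3 to day 6, edgeR called 0 of 8 tested (1 at an unadjusted p under 0.05, 1 by DESeq2) in Cont, and 1 rose and 0 fell of 8 tested in +Sm3CA, the ligand Kitl (log2 fold change 0.98, a call lost without +Sm3CA day 3 replicate 1, 2 or 3 or +Sm3CA day 6 replicate 1, with DESeq2's size factors, with 1 well or with the replicate block, 0.60 to 1.14). Between the vectors on day 10, edgeR called 0 of 8 tested (0 at an unadjusted p under 0.05, 0 by DESeq2) (median -0.35).

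Pecam1 was detected mainly in ESCs. ESC libraries had 6, 7 and 19 reads, or levels of 5.48, 12.6 and 24.4, and all other libraries had 0 to 4 reads, or at most 3.77. MEFs had 0, 0 and 1 reads, and +Sm3CA day 6 had none. On 1 MEF read Pecam1 was 39.3-fold higher (95% counting interval 6.56 to 1599.7) in ESCs than in MEFs, and on 3 reads in +Sm3CA day 10 it was 10.5-fold higher (95% counting interval 3.30 to 53.8) than there. Against Cont day 10 it was 5.95-fold higher. Without ESC replicate 3 these folds against MEFs, +Sm3CA day 10 and Cont day 10 were 23.5-fold (3.53 to 998), 6.30-fold (1.73 to 34.5) and 3.56-fold. They were at least 8.01-fold without MEF replicate 3, 19.5-fold (3.26 to 796) without +Sm3CA day 10 replicate 2 and 10.9-fold (2.77 to 93.5) without Cont day 10 replicate 3. It failed the filter on low counts and had no test with all libraries. With no filter it was called in ESCs against MEFs, Cont day 10 and +Sm3CA day 10 (adjusted p = 0.000854, 0.0488 and 0.0227), and with DESeq2 against MEFs and +Sm3CA day 10 (adjusted p = 0.00323 and 0.0326) but not Cont day 10 (0.0673). With 1 library left out the filter asks for fewer libraries, and Pecam1 passed it without ESC replicate 1 (adjusted p = 0.000327, 0.0112 and 0.006 against the same 3 groups) but not without ESC replicate 2 or 3. Without single libraries of the other groups it was called as well (adjusted p = 0.00152 to 0.00433 against MEFs, 0.0183 to 0.0475 against +Sm3CA day 10, and 0.0454 and 0.022 against Cont day 10), except without Cont day 10 replicate 1 (0.0774). Endothelial markers, 11 in the table, summed to 25.6, 28.9 and 36.0 in ESCs and 43.3, 39.1 and 36.3 in MEFs. In ESCs their most abundant gene was Egfl7, and the defining markers Cdh5, Kdr, Tie1, Emcn and Cldn5 had no read. Of its 4 partners, 3 were tested, and 1 rose and 1 fell (1 and 1 of 3 without ESC replicate 2) between ESCs and MEFs, as Ptpn6 (log2 fold change 2.81) and Ptpn11 (log2 fold change -1.93) (median 0.32 (without ESC replicate 2 0.13)). In Cont day 3 against MEFs, 0 rose and 2 fell of 3 tested (median -0.93), and between the vectors on day 10, edgeR called 0 of 3 tested (0 at an unadjusted p under 0.05, 0 by DESeq2) (median 0.00).

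**Figure D3:**
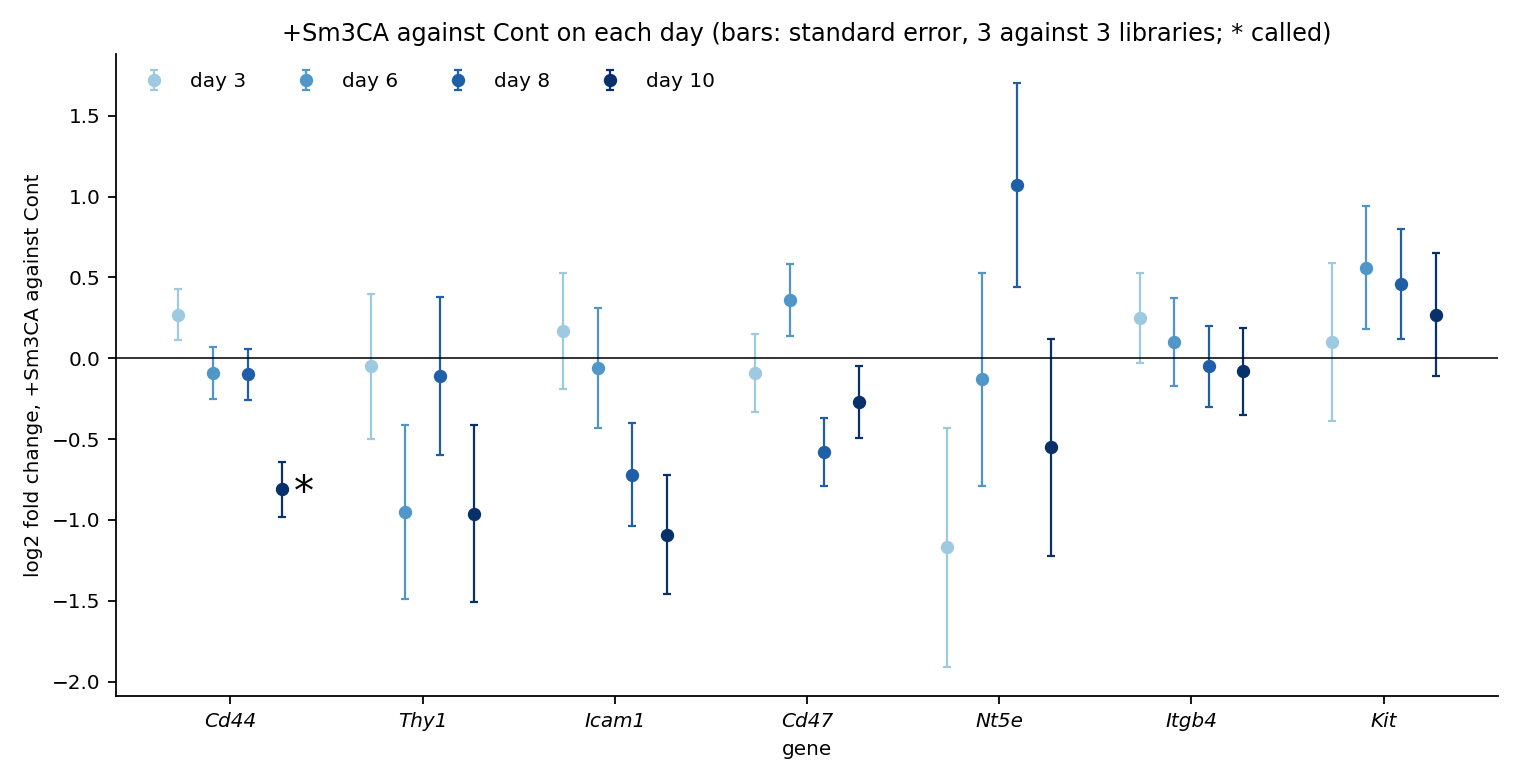
Log2 fold changes of the 7 members tested between +Sm3CA and Cont (vertical axis) on days 3, 6, 8 and 10, by gene on the horizontal axis, with bars for standard errors of 3 against 3 libraries and a star for a called difference. Cd44 on day 10, at -0.81, carries the only star.

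Other surface molecules were followed in lists of 25 fibroblast and 24 pluripotency or epithelial genes. From MEFs to Cont day 3, of the fibroblast list 2 rose and 17 fell of 22 tested (median -2.13 beside 0.00; over all genes 2480 rose and 2290 fell of 10979 genes). The fall was steep in Pdgfrb (92.3-fold lower, counting interval 25.2 to 768), Mcam (log2 fold change -5.23) and Fap (log2 fold change -4.21), while Ly6a (log2 fold change 2.97) and Cd9 (log2 fold change 2.94) rose. Of the pluripotency and epithelial list, 9 rose and 3 fell of 22 tested (median 1.06 (bounded 0.72)), led by Podxl (114-fold higher, counting interval 38.7 to 556), Cldn3 (at least 43.2-fold higher) and Epcam (at least 9.54-fold higher). Between ESCs and MEFs, 1 rose and 20 fell of 22 tested (1 and 20 of 22 without ESC replicate 2) of the first list (median -4.49 (bounded -3.72, without ESC replicate 2 -5.13, bounded -3.53)) and 16 rose and 2 fell of 22 tested (16 and 2 of 22 without ESC replicate 2) of the second (median 4.34 (bounded 2.76, without ESC replicate 2 4.39, bounded 3.04); over all genes 3198 rose and 3344 fell of 10979 genes, median 0.00). Called genes that went against the name of the second list were Cd24a (log2 fold change -2.38) and Cd200 (log2 fold change -5.90).

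Along Cont, in the step to day 6, 6 rose and 0 fell of 22 tested of the second list (median 0.60 (bounded 0.65) beside 0.02), among them Cldn4 (31.9-fold higher, counting interval 5.37 to 1292, a call lost with 1 well) and Cldn7 (18.1-fold higher, counting interval 2.91 to 748, a call lost without Cont day 3 replicate 1 or 3 or Cont day 6 replicate 1 or with 1 well), and 0 rose and 2 fell of 22 tested of the first list, Cdh2 (log2 fold change -1.37, a call lost without Cont day 3 replicate 2 or 3 or Cont day 6 replicate 2 or 3 or with 1 well, -1.40 to -1.10) and Ncam1 (log2 fold change -0.86, a call lost without Cont day 3 replicate 1, 2 or 3 or Cont day 6 replicate 1 or 2 or with 1 well, -0.89 to -0.66). To day 8, 1 rose and 0 fell of 22 tested of the fibroblast list, Vcam1 (log2 fold change 2.19, a call lost without Cont day 8 replicate 3, 1.69), and edgeR called 0 of 22 tested (7 at an unadjusted p under 0.05, 1 by DESeq2) of the other. To day 10, 1 rose and 0 fell of 22 tested of the first list, Ly6a (log2 fold change 1.39, a call lost without Cont day 8 replicate 1 or 2 or Cont day 10 replicate 2 or 3 or with 1 well, 1.15 to 1.35), and 4 rose and 0 fell of 22 tested of the second list (median 0.38 (bounded 0.36)), with Tdgf1 (log2 fold change 3.57) and Cldn6 (log2 fold change 2.58, a call lost without Cont day 8 replicate 1 or 2 or Cont day 10 replicate 3, 2.28 to 2.43). In +Sm3CA, 6 rose and 0 fell of 22 tested of the second list and 0 rose and 4 fell of 22 tested of the first in the step to day 6, with Itga5 (log2 fold change -2.74), Lrp1 (log2 fold change -1.74) and Cdh2 (log2 fold change -1.73). In its step to day 8, 3 rose and 0 fell of 22 tested of the first list, Vcam1 (log2 fold change 1.75, a call lost without +Sm3CA day 6 replicate 1 or 3 or +Sm3CA day 8 replicate 1 or with 1 well, 1.60 to 2.06), Mcam (log2 fold change 1.93, a call lost without +Sm3CA day 6 replicate 1, 2 or 3 or +Sm3CA day 8 replicate 1 or 2 or with 1 well, 1.66 to 2.11) and Itgav (log2 fold change 0.99, a call lost without +Sm3CA day 6 replicate 1, 2 or 3 or +Sm3CA day 8 replicate 1 or 2 or with 1 well, 0.80 to 1.11), and 2 rose and 0 fell of 22 tested of the second, Ceacam1 (log2 fold change 1.09, a call lost without +Sm3CA day 6 replicate 1, 2 or 3 or +Sm3CA day 8 replicate 1 or with 1 well, 0.66 to 1.18) and Slc7a3 (log2 fold change 1.31, a call lost without +Sm3CA day 6 replicate 3 or +Sm3CA day 8 replicate 2, 1.18 to 1.19). In its step to day 10, edgeR called 0 of 22 tested (5 at an unadjusted p under 0.05, 0 by DESeq2) of the first list, and 3 rose and 0 fell of 22 tested of the second, Cldn6 (log2 fold change 2.33, a call lost without +Sm3CA day 8 replicate 2 or +Sm3CA day 10 replicate 2, 2.03 to 2.18), Tdgf1 (log2 fold change 5.51) and Ceacam1 (log2 fold change 1.01, a call lost without +Sm3CA day 8 replicate 2 or +Sm3CA day 10 replicate 1, 2 or 3, 0.87 to 1.06). In ESCs against Cont day 10, 1 rose and 18 fell of 22 tested (1 and 18 of 22 without ESC replicate 2) of the first (median -2.21 (bounded -2.10, without ESC replicate 2 -2.31, bounded -2.02) beside -0.15), with Ly6a (at least 114-fold lower), and 8 rose and 8 fell of 22 tested (8 and 7 of 22 without ESC replicate 2) of the second (median -0.20 (without ESC replicate 2 -0.06)), with Tdgf1 (log2 fold change 4.11) higher and Podxl (log2 fold change -3.08) and Cldn3 (log2 fold change -3.06) lower in ESCs.

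Between the vectors on day 10, of the fibroblast surface list 0 rose and 5 fell of 20 tested, with a median of -0.90 beside -0.01 over all genes (85 rose and 281 fell of 10237 genes). The genes were Cspg4 (log2 fold change -1.96, a call lost without Cont day 10 replicate 2 or +Sm3CA day 10 replicate 2 or 3, -1.84 to -1.56), Cdh11 (log2 fold change -1.83, a call lost without Cont day 10 replicate 3 or +Sm3CA day 10 replicate 3, -1.70 to -1.54), Lrp1 (given with Cd47 above), Vcam1 (log2 fold change -1.24, a call lost without Cont day 10 replicate 2 or 3 or +Sm3CA day 10 replicate 1, 2 or 3, with 1 well, in a fit of 30 libraries or by DESeq2, -1.37 to -1.04) and Itgb1 (log2 fold change -0.87). Itgb1 also had a called interaction (log2 fold change -0.93, a call lost without Cont day 3 replicate 1 or 3 or Cont day 10 replicate 2 or 3 or +Sm3CA day 3 replicate 2 or 3 or +Sm3CA day 10 replicate 1 or 2, with no filter, with 1 well or in a fit of 30 libraries, -0.98 to -0.80), where the median of the list was -1.08. Of the pluripotency and epithelial list, edgeR called 0 of 20 tested (6 at an unadjusted p under 0.05, 0 by DESeq2) on day 10 (median 0.16). On day 8 Cdh1 alone was called of that list, higher in +Sm3CA (log2 fold change 0.76, SE 0.19, adjusted p = 0.0443; alternatives 0.00524 to 0.265, a call lost without Cont day 8 replicate 2 or 3 or +Sm3CA day 8 replicate 1 or 2, with 1 well or in a fit of 30 libraries, 0.57 to 0.78), with 149, 84.4 and 126 in Cont and 247, 207 and 147 in +Sm3CA, which overlapped. On day 10 the +Sm3CA libraries lay above all Cont libraries in Cdh1 (229, 246 and 233 against 170.4, 160.1 and 156) and Epcam (105, 110.3 and 122 against 66.7, 68.1 and 82.9), without a call (log2 fold change 0.56, adjusted p = 0.113, and 0.64, adjusted p = 0.139).

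The order of the groups by mean level (± SD, n = 3) is given for each member. For Cd44 it ran MEFs (469 ± 38.9), +Sm3CA day 3 (363 ± 38.5), Cont day 10 (350.2 ± 47.7), Cont day 8 (335 ± 27.6), +Sm3CA day 8 (309 ± 66.9), Cont day 3 (301 ± 8.76), Cont day 6 (288 ± 7.96), +Sm3CA day 6 (267 ± 31.7), +Sm3CA day 10 (197 ± 4.42) and ESCs (0.602 ± 1.04). Libraries of neighbouring groups in this order did not overlap from MEFs to +Sm3CA day 3, from +Sm3CA day 6 to +Sm3CA day 10 and from there to ESCs, and overlapped elsewhere. For Icam1 it ran ESCs (54.8 ± 4.04), Cont day 10 (35.7 ± 9.67), Cont day 8 (34.7 ± 4.29), +Sm3CA day 3 (21.7 ± 9.90), +Sm3CA day 8 (20.8 ± 7.88), Cont day 3 (19.1 ± 4.58), +Sm3CA day 10 (16.5 ± 5.15), Cont day 6 (15.9 ± 0.890), MEFs (15.8 ± 1.85) and +Sm3CA day 6 (14.9 ± 2.51), and ESCs alone were apart from the next group. For Thy1 it ran MEFs (207 ± 25.4), Cont day 3 (17.0 ± 4.60), +Sm3CA day 3 (16.3 ± 3.42), Cont day 10 (13.1 ± 3.85), Cont day 6 (10.9 ± 7.30), Cont day 8 (10.3 ± 6.02), +Sm3CA day 8 (8.96 ± 4.32), +Sm3CA day 10 (6.62 ± 1.26), +Sm3CA day 6 (5.70 ± 2.17) and ESCs (1.64 ± 0.307), with MEFs and ESCs apart from their neighbours. For Cd47 it ran Cont day 8 (76.1 ± 19.4), Cont day 10 (74.2 ± 14.7), +Sm3CA day 10 (61.1 ± 6.62), +Sm3CA day 6 (57.6 ± 7.42), MEFs (52.0 ± 18.2), +Sm3CA day 8 (51.3 ± 5.28), Cont day 6 (45.0 ± 1.94), Cont day 3 (35.2 ± 5.88), +Sm3CA day 3 (32.9 ± 3.01) and ESCs (5.86 ± 5.99), and the neighbours apart were Cont day 6 from Cont day 3, and +Sm3CA day 3 from ESCs.

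For Nt5e the order was +Sm3CA day 8 (13.5 ± 5.90), Cont day 10 (12.8 ± 13.2), +Sm3CA day 10 (8.55 ± 3.41), Cont day 6 (8.52 ± 4.57), Cont day 3 (8.52 ± 5.90), +Sm3CA day 6 (8.33 ± 4.60), MEFs (7.90 ± 5.16), Cont day 8 (6.12 ± 3.21), +Sm3CA day 3 (3.76 ± 1.41) and ESCs (0.304 ± 0.527), and ESCs alone were apart from their neighbour, though they overlapped with Cont day 10. Itgb4 followed Cont day 10 (66.1 ± 16.7), +Sm3CA day 10 (61.6 ± 21.3), Cont day 8 (58.0 ± 14.4), +Sm3CA day 8 (56.5 ± 2.62), +Sm3CA day 3 (47.5 ± 20.3), +Sm3CA day 6 (44.3 ± 1.60), Cont day 6 (41.7 ± 5.82), Cont day 3 (39.8 ± 9.32), MEFs (1.03 ± 1.12) and ESCs (0.429 ± 0.742), with the reprogramming groups apart from MEFs, and MEFs and ESCs overlapping. For Pecam1 it was ESCs (14.2 ± 9.57), Cont day 10 (2.05 ± 1.91), +Sm3CA day 10 (1.20 ± 1.11), Cont day 3 (1.11 ± 1.23), +Sm3CA day 8 (1.09 ± 1.26), Cont day 6 (0.905 ± 0.880), Cont day 8 (0.749 ± 0.653), +Sm3CA day 3 (0.618 ± 1.07), MEFs (0.288 ± 0.499) and +Sm3CA day 6 (0 ± 0), and ESCs alone were apart from the next group. Kit followed ESCs (39.8 ± 18.8), +Sm3CA day 8 (31.0 ± 6.55), +Sm3CA day 10 (23.3 ± 10.8), Cont day 8 (22.6 ± 2.51), Cont day 10 (19.6 ± 3.97), +Sm3CA day 6 (18.7 ± 7.19), Cont day 6 (13.2 ± 2.45), +Sm3CA day 3 (7.42 ± 3.65), Cont day 3 (6.79 ± 2.03) and MEFs (0 ± 0), and MEFs alone were apart from their neighbour.

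For each member the 3 genes with the most similar course over the 10 group means (Pearson correlation of log2 levels, among 8628 genes) are given as a description. ESCs and MEFs stand far from the rest for most members and set much of each value. Thy1 was most like Itgb1 (r = 0.987), Gng11 (r = 0.984) and Tgfbi (r = 0.983), and Itgb1, the integrin β1 chain, held 1948 in MEFs and 103 in ESCs. Cd44 was most like Galnt2 (r = 0.993), Anxa4 (r = 0.992) and Gng12 (r = 0.992). Nearest to Icam1 were Abcc5 (r = 0.904), Aplp1 (r = 0.901) and Cog7 (r = 0.900), and nearest to Cd47 were Nav1 (r = 0.986), P2rx4 (r = 0.982) and Slc2a10 (r = 0.979). Nt5e was most like Mpv17 (r = 0.983), Vps26b (r = 0.974) and Fam120a (r = 0.970). Itgb4 was most like Mal (r = 0.996), Cxadr (r = 0.994) and Nccrp1 (r = 0.992). Nearest to Pecam1 were Wee1 (r = 0.976), Zfp934 (r = 0.970) and Upp1 (r = 0.965). Kit was most like Pou5f1 (r = 0.981), Sod2 (r = 0.972) and Clcn3 (r = 0.968), where counts of Pou5f1 can include the MKOS cassette. These lists depended on the measure: with Pearson's correlation over the 30 libraries 0 to 2, and with Spearman's over the group means 0 or 1, of the 3 genes were again among the first 3.

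Promoter sequences from RefSeq (build GRCm38.p6, 300 bases, from 250 before to 50 after the start that RefSeq gives) were matched for 5 of the 8 members: Cd44, Icam1, Cd47, Nt5e and Kit, and not for Thy1, Itgb4 and Pecam1. Short motifs were searched on both strands, and the share of all 32851 promoters that hold each is CAGACA in 21.0% and GTCTAGAC in 0.213% (SMAD), TGANTCA in 7.81% (AP-1), CACGTG in 7.15% (E-box), ATGCAAAT in 1.74% (octamer), GGGTGG in 31.5% (KLF) and TATAAA in 13.6% (TATA box). Kit held GGGTGG in both of its windows, Nt5e held CAGACA on the minus strand relative to the gene, and Cd44 and both windows of Cd47 held none of the 7. Icam1 held TATAAA at 14 to 19 bases after the start and, on the opposite strand, GGGTGG 2 times. The windows follow RefSeq and not the gene starts of GENCODE given above: those of Cd47 (chr16:49855404-49855703 and chr16:49855411-49855710) and Nt5e (chr9:88327359-88327658) lie inside the gene as GENCODE draws it, downstream of its start there. Relative to the GENCODE start, that of RefSeq stands at -45 bases for Icam1 and at 71 and 75 bases for Kit. The TATAAA match of Icam1 thus lies after its RefSeq start but before its GENCODE start. No matches overlapped each other. A match is a description and no site, and a missing match says only that these letters are not in the window. The promoters of Cd44 (chr2:102901616-102901915, minus strand) and Icam1 (chr9:21015690-21015989, plus strand) are printed 5′ to 3′ on the strand of the gene, because this pair of markers stood on opposite sides in ESCs, with motifs in capitals.
Cd44: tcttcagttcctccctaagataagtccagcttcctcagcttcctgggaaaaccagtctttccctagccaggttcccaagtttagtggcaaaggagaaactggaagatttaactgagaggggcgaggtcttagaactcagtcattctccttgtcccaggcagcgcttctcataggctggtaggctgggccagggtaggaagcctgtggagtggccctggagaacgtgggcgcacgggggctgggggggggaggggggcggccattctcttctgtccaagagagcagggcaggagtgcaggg
Icam1: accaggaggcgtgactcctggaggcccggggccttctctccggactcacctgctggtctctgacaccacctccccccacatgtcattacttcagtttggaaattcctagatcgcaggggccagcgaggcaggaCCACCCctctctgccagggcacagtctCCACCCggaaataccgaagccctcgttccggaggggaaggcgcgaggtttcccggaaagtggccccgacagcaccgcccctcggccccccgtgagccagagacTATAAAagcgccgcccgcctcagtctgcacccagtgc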

How the data were processed

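STRT RNA-seq was measured in 84 wells of mouse cells. The deposited table holds raw read counts per gene and well, which the authors made with the platform's pipeline, naming Bowtie 0.12.9, DESeq2 1.6.3 and build mm10. Wells were summed by the labels to 30 libraries, as in the study. Libraries held 1008596 to 2296059 reads (median 1602511) and wells 195330 to 902989, which limits the precision of genes with few reads.

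Comparisons used edgeR 4.0.16 (limma 3.58.1, R 4.3.3) with TMM, filterByExpr, the quasi-likelihood test and a Benjamini-Hochberg threshold of 0.05. Comparisons along the course and with ESCs were fitted on 30 libraries (10979 genes tested), and those between the vectors on the 24 reprogramming libraries (10237 genes tested). Levels were divided by size factors of DESeq2 1.42.0. Python 3.11.15, pandas 2.3.3 and scipy 1.17.1 made the remaining tables, and the procedure was tested on simulated data. Counting intervals come from exact (Clopper-Pearson) 95% intervals of 1 group's share of the reads of both groups, turned into a ratio, and a group at 0 was set to a floor of 3 reads over the group.

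The members and lists were chosen with earlier results of these data known. Named are the 8 members, Smad3, Nanog, Cdh1, Epcam, of each list the called genes, at most the 4 with the largest change per direction and comparison, and the 3 genes most like each member among those with a mean of at least 10 normalized counts. Defining markers at 0, the most abundant marker and genes named for single libraries come in addition. The 19 lists hold 186 genes, of which 177 were in the table, and 2 further genes of these lists are not reported here. The series design pairs replicates over days within a series, whereas vectors, MEFs and ESCs share only a number. Correlations of residuals between libraries with the same number were -0.109 to 0.166 over days within a series, -0.163 to 0.102 between vectors and -0.16 to 0.103 between MEFs and ESCs. The fits had no replicate block, and 1 alternative added it. The other alternatives were DESeq2's size factors, no filter on low counts, DESeq2's Wald test, 1 well per library, a fit of the 2 groups alone or of all 30 libraries, and leaving out each replicate. Levels were also scaled with TMM, and likeness by 2 other correlations. No library was left out of the main values. Protein sequences were not used here.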

Additional observations from a re-analysis of the deposited data

Results flagged for a closer look

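The difference between +Sm3CA and Cont changed from day 3 to day 10 in 11 of the 132 genes tested among members, lists and genes for orientation, by edgeR's test of an interaction of vector and day. Over all genes 103 of 10237 were called, or 1.01%. The lists were chosen with earlier results known, so nothing is read from their count. Values are log2 fold changes of day 10 relative to day 3, and each call that a left-out library or another choice lost is named. The 1 member was Cd44, at -1.08 (a call lost without Cont day 10 replicate 2, -0.97, and in a fit of all 30 libraries, -1.07). Smad3, which counts the vector as well, stood at -2.54, a call lost without Cont day 10 replicate 3, -2.32. The actin linker Msn had -1.54, and Fn1 had -1.38. The keratins Krt14 and Krt17 had -2.06 and -2.11. Thbs1 stood at -1.96, a call lost without Cont day 3 replicate 1 or Cont day 10 replicate 2, -1.80 to -1.72.

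Itgb1 stood at -0.93, a call lost without Cont day 3 replicate 1 or 3 or Cont day 10 replicate 2 or 3 or +Sm3CA day 3 replicate 2 or 3 or +Sm3CA day 10 replicate 1 or 2, with no filter, with 1 well or in a fit of 30 libraries, -0.98 to -0.80. Col1a1 had -1.67, a call lost without Cont day 3 replicate 1 or 3 or Cont day 10 replicate 2 or 3 or +Sm3CA day 3 replicate 1 or 3 or +Sm3CA day 10 replicate 1, 2 or 3, with 1 well or in a fit of 30 libraries, -1.72 to -1.39, and Col1a2 had -1.30, a call lost without Cont day 3 replicate 1 or 3 or Cont day 10 replicate 2 or 3 or +Sm3CA day 3 replicate 1 or +Sm3CA day 10 replicate 1, 2 or 3 or in a fit of 30 libraries, -1.33 to -1.08. Mcpt8 had no read in +Sm3CA on day 10, so that no fold is given, and its interaction had an adjusted p of 0.0381, a call lost without Cont day 3 replicate 1, 2 or 3 or Cont day 10 replicate 2 or 3 or +Sm3CA day 3 replicate 1, 2 or 3 or +Sm3CA day 10 replicate 1, 2 or 3.

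In Cd47 the vectors lay apart in opposite directions on 2 days. On day 6, +Sm3CA held 53.0, 53.6 and 66.1 and Cont 45.0, 46.9 and 43.0, and on day 8 +Sm3CA held 51.3, 46.0 and 56.5 and Cont 63.4, 66.5 and 98.4. Neither day was called (adjusted p = 1 and 0.148). Libraries of the vectors lay apart in opposite directions on different days in 487 of the 10237 genes tested, or 4.76%. The difference between these days was not tested.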

How the results depend on the processing

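No called difference of a member or of another gene named here changed direction under any alternative, or with any library left out, that gave it an adjusted p. Directions of the other called genes were not compared. Medians of partner lists did in ESCs against MEFs: that of CD73 was 0.07 over 3 genes and -0.61 (bounded -0.16) over 5 without ESC replicate 2, and that of CD104 was 0.41 and -0.18 when bounded. The cause was not tested in any case below. Counts of genes called moved by more than 1.5-fold as follows. With 1 well per library, which tests fewer genes on fewer reads, they were 4266 (main count 6542) in ESCs against MEFs, 2876 (4770) in Cont day 3 against MEFs, 301 (540) from day 3 to day 6 in Cont, 744 (1361) in the same step and 122 (313) in the step to day 8 of +Sm3CA, 62 (103) for the interaction, and between the vectors 1 (2) on day 3 and 0 (1) on day 6. Behind edgeR's 0 on day 6 stood 382 genes at an unadjusted p under 0.05, and DESeq2, run on all wells alone, called 1. In a fit of the 2 groups they were 1616 and 198 (107) for the steps of Cont to days 6 and 8, 3485 (5689) for ESCs against Cont day 10 and 3004 (5028) against +Sm3CA day 10. With no filter on low counts they were 176 and 227 (138) for the steps of Cont to days 8 and 10, 11, 10 and 264 (106) between the vectors on days 3, 6 and 8, and 198 for the interaction. DESeq2 called 536 and 405 (225) in the steps of +Sm3CA to days 8 and 10. With all 30 libraries in 1 fit the interaction called 42 genes, and the vectors differed in 32 on day 8 and 224 (366) on day 10.

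With 1 library left out, counts ran from 268 to 389, 41 to 93 and 47 to 152 in the steps of Cont to days 6, 8 and 10, and from 659 to 1220, 16 to 555 and 95 to 308 in those of +Sm3CA. For the interaction they ran from 27 to 192, and between the vectors from 21 to 523 on day 8, 176 to 450 on day 10 and 0 to 1 on day 6, where edgeR's count was 0 without Cont replicate 1 or 3 or +Sm3CA replicate 2 (368, 413 and 581 genes at an unadjusted p under 0.05).

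Of the members, log2 fold changes whose calls were lost were as follows. Without a filter on low counts these were Cd44 in Cont day 3 against MEFs (-0.52) and Cd47 from day 3 to day 6 in +Sm3CA (0.84). In that step Cd47 was lost too with DESeq2's size factors (0.79) and with the replicate block (0.81), the 1 call of a member that the block changed. With 1 well per library Thy1 (-1.97), Cd47 (0.59) and Kit (1.62) were lost in that step, and Kit in ESCs against Cont day 10 (0.82, and 0.99 in a fit of the 2 groups). The Cd44 interaction was lost in a fit of 30 libraries (-1.07). Calls were gained by DESeq2 for Cd44 in +Sm3CA from day 8 to 10 (-0.65) and from day 3 to 6 (-0.44), and in a fit of 2 groups for Icam1 in Cont from day 6 to 8 (1.10). Smad3, which is not a member, gained a call without a filter between the vectors on day 10 (1.01).

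With 1 library left out, calls were lost in Cd44 in Cont day 3 against MEFs (-0.62 to -0.44), Thy1 (-1.79 to -1.31), Cd47 (0.74 to 0.90) and Kit (1.08 to 1.85) from day 3 to day 6 in +Sm3CA, Kit in ESCs against Cont day 10 (0.68 to 1.34), Thy1 in ESCs against +Sm3CA day 10 (-2.11 to -1.81) and the Cd44 interaction (-1.15 to -0.97). They were gained in Cd44 from day 8 to day 10 in +Sm3CA (-0.79 to -0.47), Icam1 in ESCs against Cont day 10 (0.51 to 0.89) and Kit in ESCs against +Sm3CA day 10 (0.38 to 1.17). The ranges in this paragraph cover every library left out, also those without which the call did not change.

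The other values of the members, 182 under alternatives and 189 with a library left out, stayed on their side of the threshold. Of other named genes, 2046 values stayed, 99 lost and 1 gained a call under alternatives, and 1990 stayed and 326 lost one with a library left out. All 80 group levels of members moved by less than 1 SD when scaled with TMM. With another measure, each of the 16 lists of 3 genes most like a member changed in at least 1 gene. Some alternatives gave members no value. With 1 well per library Nt5e was not tested, and Thy1 not between the vectors. Pecam1 was tested only without a filter, by DESeq2 in some comparisons and with single libraries left out. DESeq2 gave no adjusted p for Nt5e from day 6 to day 8 in +Sm3CA, nor for Icam1, Thy1, Nt5e and Kit between the vectors on day 8. A fit of 2 groups did not test Kit in Cont day 3 against MEFs, nor Itgb4 in ESCs against MEFs. It did not test Thy1 in the steps to day 8, in +Sm3CA to day 10 and between ESCs and day 10, nor Nt5e in comparisons with MEFs or ESCs and in the steps of Cont to day 10 and +Sm3CA to day 6. Depth limits Pecam1 and Nt5e in all groups, Thy1, Cd44, Cd47 and Itgb4 in ESCs, and Itgb4 and Kit in MEFs, where few or no reads were counted.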
